A study of Mus musculus with 3 samples.

Results

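CD357-high and CD357-low cells were the 2 ends of the CD357 antibody count among old LT-HSCs (long-term hematopoietic stem cells, which keep up blood formation for a lifetime). Of 3724 cells with antibody counts, 3629 carried at least 10 tags over the 12 antibodies. The 968 cells with 5 or more CD357 tags (26.7%) were taken as CD357-high, and the 1200 cells with 0 or 1 tag (33.1%) as CD357-low. The other 1461 cells, with 2 to 4 tags, belonged to neither group. The groups were chosen by their measured CD357 tags, from the same cells: those of wild-type females 24 months old, taken from bone marrow, enriched for c-Kit, and isolated by FACS, for which the study describes an LSK CD150+CD48-CD34- gate. They were measured by DOGMA-seq, in which ATAC (accessible chromatin), RNA and surface antibodies are read together for every cell, and all 3 libraries were made from 1 pool. The study asked which surface proteins tell platelet-biased (PLT-HSCs) from multi-lineage (MUL-HSCs) stem cells, and used low CD357 as a mark of the former and high CD357 of the latter. Each CD357 group was therefore 1 sample, no test between the groups was possible, and the intervals given here are exact 95% intervals that cover counting error only. How many animals were pooled was not found in the labels, and the RNA count matrix was not analysed here.

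CD357, also called GITR, is the product of Tnfrsf18, a receptor of the tumor necrosis factor (TNF) receptor family. Its ligand GITRL is encoded by Tnfsf18, and the receptor signals through TRAF adaptor proteins to NF-kB. It is best known as a surface protein of regulatory T cells and of activated T cells, where it modulates their response. An antibody tag counts the receptor protein on the cell surface, whereas ATAC fragments count how often the transposase cut the chromatin of a locus, so the 2 measurements of the same cell need not move together.

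The CD357 tag chose the cells, and the P2X7R tag gave the largest ratio among the other antibodies. Both tags are 15 bases long and were designed as barcodes that name the antibody in sequencing.

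CD357 tag: GGCACTCTGTAACAT
P2X7R tag: TGCTTCATTCATGTG

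The next sequences show the loci that the text describes most closely. They are the promoter of the gene that encodes CD357, the promoter of Arhgap30, which was more accessible in CD357-high cells, and 250 bases of the 2 distal windows at each end of the comparison described further on. All are from the mm10 build (GRCm38.p6), plus strand, 5′ to 3′, and both promoters end at the base before the gene start. Capitals mark letter strings that match a short motif on either strand.

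Tnfrsf18 promoter, chr4:156025914-156026163: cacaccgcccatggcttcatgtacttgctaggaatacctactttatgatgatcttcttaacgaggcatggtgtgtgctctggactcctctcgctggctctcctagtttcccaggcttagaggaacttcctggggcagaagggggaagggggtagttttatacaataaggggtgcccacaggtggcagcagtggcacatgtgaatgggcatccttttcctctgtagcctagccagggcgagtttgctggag
Arhgap30 promoter, chr1:171388704-171388953: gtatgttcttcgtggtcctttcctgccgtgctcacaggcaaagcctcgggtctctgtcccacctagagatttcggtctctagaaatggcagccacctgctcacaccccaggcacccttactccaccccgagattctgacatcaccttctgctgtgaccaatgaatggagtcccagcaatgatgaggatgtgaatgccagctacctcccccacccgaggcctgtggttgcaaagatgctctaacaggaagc
Lower window on chromosome 11, chr11:102633501-102633750: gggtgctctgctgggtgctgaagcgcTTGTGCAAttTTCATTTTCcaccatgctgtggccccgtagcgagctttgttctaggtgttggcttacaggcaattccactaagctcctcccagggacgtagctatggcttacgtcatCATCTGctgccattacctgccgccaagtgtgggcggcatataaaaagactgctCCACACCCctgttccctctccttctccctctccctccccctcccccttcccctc
Lower window on chromosome 13, chr13:48444084-48444333: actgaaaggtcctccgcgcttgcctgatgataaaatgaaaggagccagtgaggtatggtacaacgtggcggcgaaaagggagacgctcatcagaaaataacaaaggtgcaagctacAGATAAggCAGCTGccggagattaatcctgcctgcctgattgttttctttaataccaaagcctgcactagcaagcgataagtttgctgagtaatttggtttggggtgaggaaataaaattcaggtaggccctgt
Higher window on chromosome 12, chr12:32111007-32111256: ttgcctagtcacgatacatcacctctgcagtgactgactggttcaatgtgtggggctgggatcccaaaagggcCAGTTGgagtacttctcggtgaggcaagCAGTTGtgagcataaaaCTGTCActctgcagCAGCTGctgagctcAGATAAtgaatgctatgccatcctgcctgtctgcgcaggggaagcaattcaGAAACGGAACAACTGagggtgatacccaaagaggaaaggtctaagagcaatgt
Higher window on chromosome 10, chr10:116208737-116208986: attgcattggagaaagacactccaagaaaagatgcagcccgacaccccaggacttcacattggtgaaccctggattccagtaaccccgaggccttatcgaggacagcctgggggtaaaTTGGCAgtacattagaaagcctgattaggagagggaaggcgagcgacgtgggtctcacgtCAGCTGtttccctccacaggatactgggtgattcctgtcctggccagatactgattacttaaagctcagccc

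The Tnfrsf18 and Arhgap30 promoters held none of the 28 letter strings searched, NF-kB (GGANTTTCC) among them, which 1.09% of 32543 promoters of this length held. The lower window on chromosome 11 held the strings of C/EBP (TTGCNNAA), IRF (GAAANNGAA), an E-box (CAGATG) and KLF (GGGTGTGG), which 9.66%, 7.49%, 14.7% and 3.47% of promoters of this length held. The lower window on chromosome 13 held GATA-factor letters (AGATAA, 10.1% of promoters) close to an E-box (CAGCTG, 13.1%). The higher window on chromosome 12 held MYB (CAACTG, 11.4%) 3 times, with MEIS (CTGTCA, 16%), GATA, the CAGCTG E-box and IRF, and none of these matches overlapped another. The higher window on chromosome 10 held NFI (TTGGCA, 12.5%) and the same E-box. A match is a description of the letters only.

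CD357 tag counts had no gap at either gate. The count ran from 0 to 24 tags a cell with a mean of 3.25 over all 3629 cells, and its variance was 2.74 times the mean. At the lower gate, 666 cells had 1 tag and 611 had 2. At the upper gate, 295 cells had 5 tags and 397 had 4. By construction the means then lay apart, at 7.21 (7.04 to 7.38) in CD357-high and 0.555 (0.514 to 0.599) in CD357-low cells. Cells just inside and just outside a gate thus differed by 1 tag.

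**Figure D1:**
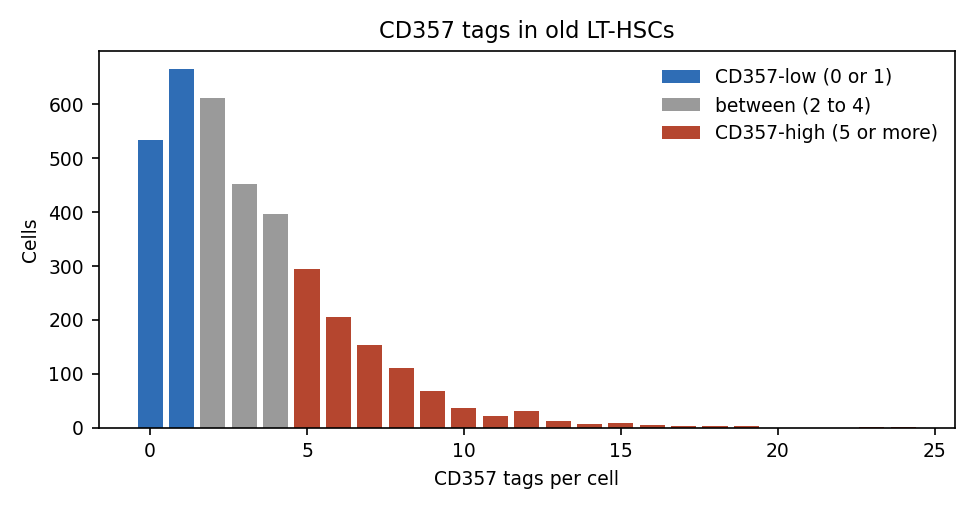
Number of LT-HSCs (y axis) with each CD357 tag count (x axis), colored by group. The most cells, 666, had 1 tag, and neither gate lies at a gap in the counts.

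The 2 groups had close median ATAC and RNA depth. CD357-high cells had a median of 10430 ATAC fragments and CD357-low cells 10308, with medians of 2017 and 1972 RNA UMIs. ATAC depth spread more widely in CD357-high cells, with quartiles of 8295 and 12506 against 8536 and 12093 and a maximum of 45151 against 28088. Without the deepest 5% of kept cells, 879 of 968 CD357-high and 1168 of 1200 CD357-low cells were left. Peak regions held a median of 67.7% and 67.3% of each cell's fragments. Antibody depth differed more, since the other 11 antibodies summed to a median of 29.0 tags in CD357-high and 24.0 in CD357-low cells. Cells in which more than 2 fragments overlapped more often than expected, a measure used to find doublets, made up 12.1% (10.1 to 14.3) of CD357-high, 6.09% of the intermediate and 4.83% (3.69 to 6.20) of CD357-low cells. The sums without these cells (851 and 1142 left) are given beside some of the results, and all ATAC values are scaled by the 10683654 and 12522397 nuclear fragments of the groups. No chromosome differed by more than 0.010 on the log2 scale in either direction.

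Tnfrsf18 itself held no more ATAC fragments in CD357-high cells. Over the gene (chr4:156026164-156028895) with 2 kb upstream there were 80 fragments in CD357-high and 110 in CD357-low cells, or 7.49 and 8.78 fragments per 1000000 nuclear fragments (FPM), a log2 ratio of -0.23 (-0.66 to 0.20). This was fewer than the 200 fragments set for the comparison across genes, and Tnfrsf18 was therefore not among the genes tested for size. Cells with at least 1 fragment there made up 7.64% of CD357-high and 7.83% of CD357-low cells. The level also had no order along the CD357 count, with 7.34 FPM at 0 tags, 11 at 4, 4.80 at 7 to 8 and 6.49 at 9 or more. The promoter printed above lies in a start region of 1 kb on each side that held 69 and 99 fragments.

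The surroundings of Tnfrsf18 held nearly equal shares of fragments. The gene with 100 kb on each side held 2920 and 3424 fragments, a log2 ratio of -0.001 (-0.072 to 0.071). The neighboring Tnfrsf4, which encodes the related receptor OX40, held only 36 and 28 fragments. Gm16008, an antisense transcript that overlaps Tnfrsf18 and shares its fragments, stood at -0.06 (-0.28 to 0.17). Ttll10 on its far side had the largest difference among neighbors above 200 fragments, at -0.22 (-0.44 to -0.00).

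P2X7R had the highest ratio of CD357-high over CD357-low cells among the other antibodies, in mean tags a cell and as a share, but did not stand higher as a centred log ratio. CD357-high cells carried 0.768 P2X7R tags a cell and CD357-low cells 0.398, a ratio of 1.93 (1.72 to 2.17), and 44.7% against 28.7% of cells carried at least 1 tag. P2X7R is a receptor for extracellular ATP. Its mean was 0.380 and 0.411 at 0 and 1 CD357 tags, 0.555, 0.525 and 0.617 at 2, 3 and 4, and 0.712, 0.605, 0.819 and 0.946 at 5, 6, 7 to 8 and 9 or more. The intermediate cells, which no gate used, thus lay between the groups, although the order was not steady from count to count. As a share of the 11 other antibodies the ratio was 1.58 (1.41 to 1.78). Among cells with 4 to 21, 22 to 31 and 32 to 157 other tags it was 1.87, 1.45 and 2.06, and without the cells of excess overlaps it was 1.89 (1.68 to 2.14). As a mean difference of centred log ratios, whose center includes the gated CD357, it was -0.00177, where MERTK stood at -0.194.

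Several differences of the other antibodies changed with antibody depth. CD274 (PD-L1), which gave 76.5% of the other tags in CD357-high cells, had means of 24.5 and 19.5, a ratio of 1.26 (1.23 to 1.28) that fell to 1.03 (1.01 to 1.05) as a share. In the cells with the fewest, intermediate and most other tags its ratio was 0.972, 1.04 and 1.13. CD27, another receptor of the TNF receptor family, had 1.0 and 0.842 tags a cell, a ratio of 1.19 (1.09 to 1.30), and 0.975 (0.892 to 1.07) as a share. CD61, the integrin beta chain of the platelet fibrinogen receptor, stood at 3.99 and 3.66 tags, 1.09 (1.04 to 1.14), and crossed to 0.892 (0.854 to 0.931) as a share. MERTK, a receptor for apoptotic cells, was lower in CD357-high cells on both scales, at 0.699 and 0.798 tags, 0.876 (0.793 to 0.968), and 0.718 (0.649 to 0.793) as a share. Its interval held 1 between cells with 7 or more CD357 tags and with 0 (0.944, 0.812 to 1.10), with no tag minimum (0.914, 0.827 to 1.01) and in the cells with the fewest other tags (0.930, 0.751 to 1.14), and its mean was 0.727 at 0 CD357 tags and 0.734 at 9 or more. CD201 (EPCR) stood at 0.937 (0.819 to 1.07) and 0.767 (0.671 to 0.877). CD68, CD106, CD163, CD183 and CD206 averaged under 0.4 tags a cell in both groups, and each of their ratios had an interval that held 1 in the main comparison. CD68 stood at 1.84 (1.24 to 2.78) between 7 or more CD357 tags and 0, and at 1.29 (1.01 to 1.64) with no tag minimum. CD163 stood at 0.711 (0.391 to 1.23) in mean tags and at 0.582 (0.320 to 1.01) as a share, at 0.551 (0.293 to 0.987) in cells with 20 or more tags and at 0.286 (0.106 to 0.642) in the cells with the most other tags. The other 11 antibodies together were 1.22 (1.20 to 1.24) times higher in CD357-high cells, and the part of this depth in each single ratio was not tested beyond the shares and strata given.

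**Figure D2:**
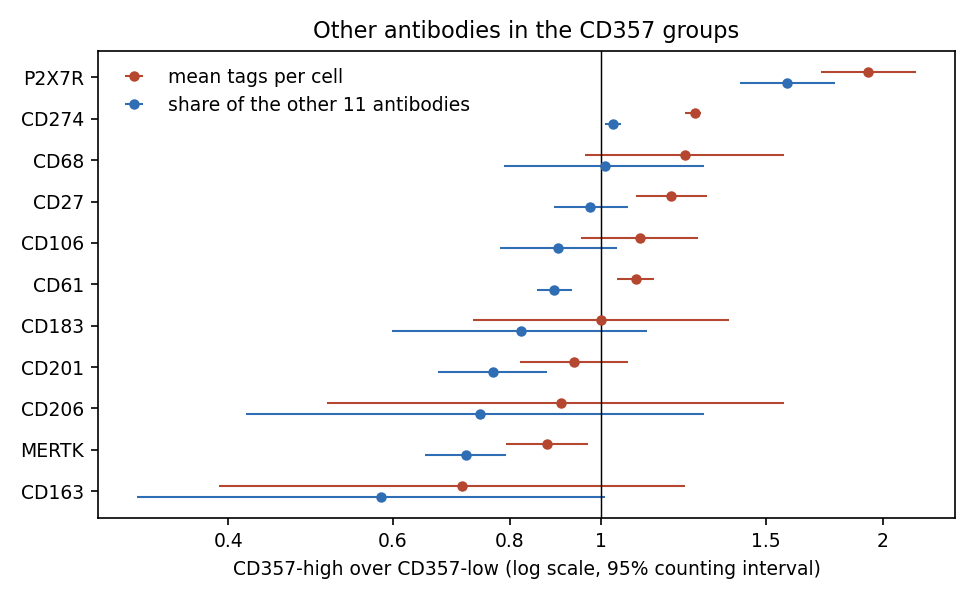
Ratio of CD357-high over CD357-low cells (x axis, log scale) for each of the 11 other antibodies, as mean tags per cell (red) and as a share of the 11 antibodies (blue), with 95% counting intervals. P2X7R lies at 1.93 and 1.58, MERTK lies below 1 on both scales, and CD61 and CD27 cross 1 when taken as a share.

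The study's platelet-biased combination has high CD61 and CD274 with low CD27 and low CD357. By its main text, a first gate on antibody counts also used P2X7R, low in platelet-biased cells and high, with CD357, in multi-lineage cells. P2X7R was then dropped because it added little. In cells of old mice, labelled by transfer from the young cells, the study found CD61, CD274, CD357 and CD27 to be the top discriminators. Its gates on these markers enriched both types there. Cells above the median of CD61 and of CD274 and at or below the median of CD27 made up 22.4% (19.8 to 25.2) of CD357-high and 13.8% (11.9 to 15.8) of CD357-low cells. Cells of the opposite combination made up 4.44% (3.23 to 5.94) and 5.25% (4.06 to 6.67). The raw medians do not remove antibody depth, which was higher in CD357-high cells. The study normalised tags as centred log ratios and used labels from RNA and ATAC, so these shares are not a repeat of its gating.

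The genes that encode the other antigens differed little in the chromatin. P2rx7 (chr5:122643911-122691432) had 926 and 978 fragments, 86.7 and 78.1 FPM, a log2 ratio of 0.15 (0.02 to 0.28). It stood at 80.5 FPM in the intermediate cells and at 94.4 in cells with 9 or more CD357 tags, and without the cells of excess overlaps its log2 ratio was 0.24. Itgb3, which encodes CD61, stood at -0.06 (-0.18 to 0.06) over the gene and at -0.33 (-0.58 to -0.09) at its promoter, with 234 and 346 fragments there. The intervals of Cd274 (0.11), Cd27 (-0.09), Cd68 (-0.17), Procr (-0.17), Mertk (0.04), Mrc1 (-0.00), Cxcr3 (-0.05), Cd163 (0.05) and Vcam1 (-0.02, with 59 and 70 fragments) held 0. The lower MERTK tags thus had no lower Mertk accessibility beside them.

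Across the genome, accessibility of genes hardly differed between CD357-high and CD357-low cells. Of 32543 genes counted with 2 kb upstream, 18858 held at least 200 fragments over both groups, and 18 of these (0.0955%) differed by 1.5-fold or more. Of them 7 (0.0371%) were higher and 11 (0.0583%) lower in CD357-high cells. The gate changed this count, to 30 (0.197%) between 7 or more tags and 0, sharing 1 gene with the 18, and to 11 (0.0547%) between 4 or more and 2 or less, sharing 2. The log2 ratios had a median of -0.002, and their 5th and 95th percentiles were -0.21 and 0.20. Their SD was 0.128, where counting error alone gave 0.112. A difference of 2-fold was reached by none. Without the cells of excess overlaps 15 of the 18 genes were past 1.5-fold, 7 of them with fewer than 200 fragments left. The cells left had all taken part in choosing the 18, so this is a description with no check in other cells. With the minimum kept, 18 genes were past 1.5-fold in those cells, 8 of them shared.

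**Figure D3:**
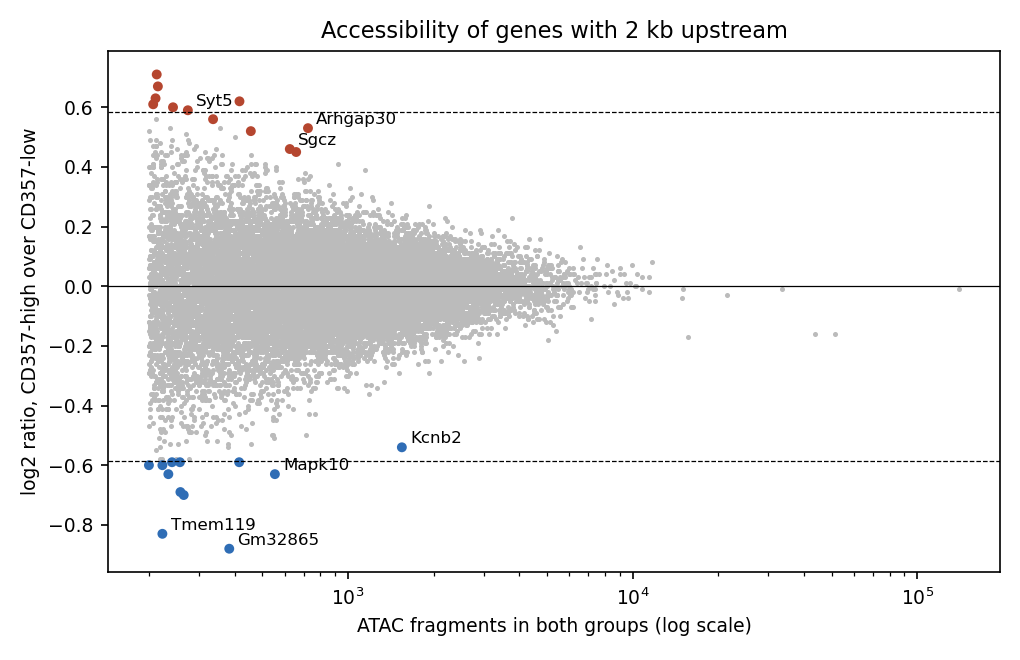
Log2 ratio of CD357-high over CD357-low accessibility (y axis) against ATAC fragments in both groups (x axis, log scale), 1 point per gene, with the genes that the naming rule chose in red and blue and 1.5-fold as dashed lines. The scatter narrows around 0 as counts grow, and Kcnb2 at -0.54 stands apart from genes of similar count.

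Among genes higher in CD357-high cells, Arhgap30 held the most fragments of the 12 that the rule chose. Arhgap30 (chr1:171388954-171410298), a GTPase-activating protein, had 400 and 324 fragments, or 37.4 and 25.9 FPM, with 34.6 in the intermediate cells. Its log2 ratio was 0.53 (0.32 to 0.75), just under 1.5-fold, and 31.0% of CD357-high against 21.5% of CD357-low cells carried a fragment there. Without the cells of excess overlaps the ratio was 0.67 (0.44 to 0.90). Its promoter, whose sequence is printed above, moved by 0.55 on the same scale.

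Other genes higher in CD357-high cells held fewer fragments. Syt5, a synaptotagmin of vesicle release, had 154 and 120 fragments and a log2 ratio of 0.59 (0.24 to 0.95). The noncoding Gm42556, 4732487G21Rik, AC104867.1 and AC154218.2 and the coding E230025N22Rik lay between 0.60 and 0.71, with 89 to 137 fragments in a group. Below 1.5-fold followed 2310040G24Rik (0.52), Cdhr5 (0.56), a cadherin-like protein of the brush border, and Sgcz (0.46), a sarcoglycan. Of the 338 Sgcz fragments of CD357-high cells, 69 came from 1 cell, and without the deepest contributor of each group its log2 ratio was 0.16.

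Kcnb2 held the most fragments of the 12 lower genes that the rule chose, and was not past 1.5-fold. Kcnb2 (chr1:15287254-15723750), a voltage-gated potassium channel, had 573 fragments in CD357-high and 974 in CD357-low cells, or 53.6 and 77.8 FPM with 65.6 in the intermediate cells. Its log2 ratio was -0.54 (-0.69 to -0.39), and 37.9% against 49.3% of cells carried a fragment there. Mapk10 (chr5:102907948-103211334), a c-Jun N-terminal kinase, had 197 and 357 fragments, or 18.4, 21.8 and 28.5 FPM in high, intermediate and low cells, a log2 ratio of -0.63 (-0.89 to -0.37). The noncoding Gm32865 (chr16:87125036-87128439) had the largest difference of any gene tested, with 121 and 262 fragments, or 11.3, 13.1 and 20.9 FPM, at -0.88 (-1.21 to -0.57).

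Tmem119, best known as a marker of microglia, had 72 and 151 fragments and a log2 ratio of -0.83 (-1.27 to -0.43). Cldn5, an endothelial tight-junction claudin, had 91 and 174 at -0.70 (-1.09 to -0.33). Tmem9b, Asb18, Arhgap44, Gm11529, Gm15624 and Ppy (pancreatic polypeptide) lay between -0.63 and -0.59. For all 24 genes that the rule chose, values were taken from the contrast that chose them and are descriptions.

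The cells with 2 to 4 CD357 tags took no part in choosing these genes. Between cells with 4 tags and cells with 2, the log2 ratio had the sign of the main comparison in 9 of the 12 higher genes and in 7 of the 12 lower genes, and every one of these 24 intervals held 0. Arhgap30 stood at 25.4 and 26.2 FPM at 0 and 1 tags, at 31.2, 40.7 and 32.9 at 2, 3 and 4 tags, and between 32.9 and 41.8 above. Kcnb2 stood at 78.9 and 76.9, then at 67.7, 62.7 and 65.7, and between 44.9 and 60.2 in CD357-high cells. Mapk10 went from 27.0 and 29.7 through 22.7, 22.8 and 19.2 to between 17.3 and 19.2. The intermediate cells thus lay between or at the groups for these genes, but no difference between 4 and 2 tags exceeded counting error. The genes were chosen for their gap between the groups, so cells outside the gates would tend to lie between them in any case. No order along the count is read from this.

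**Figure D4:**
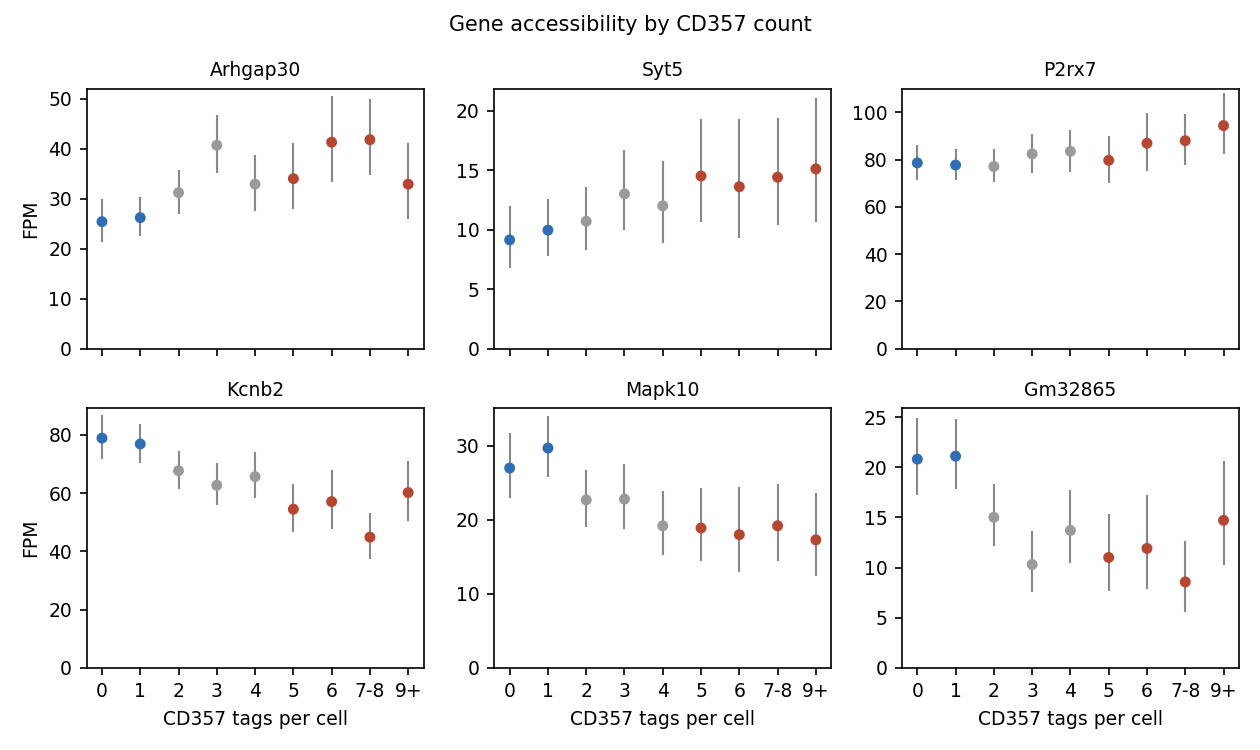
ATAC fragments per 1000000 (FPM, y axis) over 6 genes by CD357 tag count (x axis), with exact 95% counting intervals, CD357-low in blue, intermediate in gray and CD357-high in red. Arhgap30, Syt5 and P2rx7 lie higher at high counts, Kcnb2, Mapk10 and Gm32865 lower, and neighboring counts overlap within their intervals.

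Other antibodies, measured on the same cells, gave mixed orders for these genes. Arhgap30 was also higher in cells with P2X7R tags than without (0.23, 0.07 to 0.40) and in the upper against the lower quartile of CD274 (0.28, 0.06 to 0.50). Kcnb2 was lower in cells with P2X7R (-0.16, -0.28 to -0.04) and with CD27 (-0.15, -0.26 to -0.03), and higher in the upper against the lower quartile of CD61 (0.37, 0.23 to 0.50). Gm32865 was lower with P2X7R (-0.35, -0.61 to -0.10) and higher with CD61 (0.38, 0.09 to 0.67). Mapk10 was lower with P2X7R (-0.26, -0.47 to -0.06). These gates share cells with the CD357 gate, so the values are set side by side and are not separate evidence.

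Few promoters differed. Of 13408 promoters (1 kb on each side of a gene start) with at least 200 fragments, 18 (0.134%) were past 1.5-fold, 10 higher (0.0746%) and 8 lower (0.0597%), and the SD of the log2 ratios was 0.138 against 0.126 from counting error. The promoter of Esrp1, a splicing regulator of epithelial cells, had 152 and 110 fragments at 0.69 (0.33 to 1.06), followed by Antxr2 (0.67), Fam173a (0.62), Gm13840 (0.61) and A430072P03Rik (0.60). The start region of A430072P03Rik overlaps that of Gfi1, a transcriptional repressor of myeloid and stem cells, which had 153 and 118 fragments at 0.60 (lower bound 0.25). Lower promoters were Gm32865 at -0.90 (113 and 247 fragments), Zfhx2, a zinc finger homeobox factor, at -0.88 (106 and 229), Cldn5 at -0.78, Smtnl1 at -0.61 and Gimap6, an immunity-associated GTPase, at -0.61. For Zfhx2 the 2 groups had 9.92 and 18.3 FPM, with an interval of -1.23 to -0.54.

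Windows away from gene starts passed 1.5-fold more often than genes. Their counts were lower, with a median of 298 insertions against 890 fragments for a gene, and both ends of a fragment often fell into the same window. Of 14008 windows of 500 bp over 2 kb from any gene start (the 5′ end of the whole gene, so that the start of a shorter transcript can lie closer) with at least 200 insertions, 245 (1.75%) were past 1.5-fold, 111 higher (0.792%) and 134 lower (0.957%). The SD of their log2 ratios was 0.235 where independent insertions gave 0.165. Counted as fragments, the SD was 0.224 against 0.199 from counting error, and of the 7503 windows with at least 200 fragments 29 (0.387%) were past 1.5-fold, 13 higher and 16 lower. Without the cells of excess overlaps, 207 windows were past 1.5-fold in insertions, 105 of them shared with the 245. In those cells, all of which had also taken part in choosing the 245 windows, the windows summed to 0.664 for the higher (0.630 in all cells) and -0.629 for the lower ones (-0.643), a description with no check in other cells. Window intervals below are from fragments, except where insertions are given by CD357 count. Those take each insertion as independent and are therefore narrower than fragments would give.

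The lower window of chromosome 11 (chr11:102633501-102634000, between genes) held 37 fragments of CD357-high and 120 of CD357-low cells, a log2 ratio of -1.45 (-2.04 to -0.93). Fragments there were found in 3.51% and 9.08% of cells. The window of chromosome 13 (chr13:48444001-48444500, between genes) held 38 and 102, at -1.18 (-1.77 to -0.64), and the one of chromosome 5 in an intron of Tmem132c (chr5:127537501-127538000) 48 and 112, at -0.98 (-1.51 to -0.49). This last window lay 260 bp from the start of an annotated Tmem132c transcript. Other lower windows lay in introns of Mvb12b (-0.90), Nsmce1 (-0.76) and Slc28a1 (-0.75), and between genes on chromosomes 4 (-0.95) and 6 (-1.07).

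The higher window of chromosome 12 (chr12:32111001-32111500, intron of 5430401H09Rik) held 85 and 52 fragments, at 0.93 (0.42 to 1.46), in 7.85% and 3.92% of cells. The window of chromosome 10 (chr10:116208501-116209000, intron of Ptprr, a tyrosine phosphatase) held 122 and 84, at 0.76 (0.35 to 1.19). Macrod1 (0.97), Orai1 (0.88), the pore of the store-operated calcium channel, Ctif (0.77) and Camk2a (0.75) held other intronic ones, and 1 window lay between genes on chromosome 13 (0.81). Introns held 48.6% of the higher and 39.6% of the lower windows against 37.8% of all tested, and exons 12.6% and 11.2% against 24.4%.

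In the cells that the gates left out, the windows had little order along the CD357 count. Summed in fragments, the 111 higher windows held 1009, 818 and 652 FPM in CD357-high, intermediate and CD357-low cells, and the 134 lower windows 746, 960 and 1164. Between cells with 4 and with 2 CD357 tags, however, the higher windows differed by 0.049 on the log2 scale (-0.013 to 0.111) and the lower ones by -0.052 (-0.110 to 0.006). Of the higher windows 61 (55.0%) and of the lower windows 71 (53.0%) kept their sign there. Window by window, chromosome 12 held 4.56 FPM at 4 tags and 8.19 at 2, the opposite order to the groups, and chromosome 11 held 6.00 and 5.04, also opposite. Insertions in the higher windows stepped from 475 and 473 per 1000000 at 0 and 1 tags to between 597 and 617 at 2 to 4 and to between 750 and 786 above. The lower windows stood at 871 and 894 at 0 and 1 tags and at 735 (720 to 750), 701 (685 to 718) and 710 at 2, 3 and 4. Those intervals take insertions as independent and are too narrow, so the gap between them is not read as a difference. In both sets the largest steps lay at the gates, which chose the windows.

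Gene lists that the study drew from RNA differences in other cells moved slightly and in opposite directions over genes with 2 kb upstream. The MUL genes of the study's clusters of young stem cells had 57 members with at least 200 fragments, of which 38 (66.7%) lay above 0 against 49.5% of all tested genes, with a median log2 ratio of 0.035 against -0.002. Of the PLT genes of those clusters, 61 of 170 (35.9%) lay above 0, with a median of -0.033. Summed over all matched members (57 and 171), the levels were 7566 and 7402 FPM in CD357-high and CD357-low cells for MUL and 14988 and 15344 for PLT. Lists from clonal populations of both types gave 36 of 56 above 0 and a median of 0.054 for MUL, and 22 of 61 and -0.030 for PLT. The clone MUL median was 0.023 between 7 or more CD357 tags and 0, and turned to -0.012 in cells thinned to 5000 fragments. No gene of these 4 lists was past 1.5-fold, where 0.0955% of all genes were. At promoters, 22 of 40 young MUL (median 0.011) and 57 of 119 young PLT genes (-0.003) lay above 0. Of all tested promoters 50.1% did. For the clone lists it was 21 of 38 (0.025) for MUL and 22 of 39 (0.013) for PLT. The clone lists thus did not move in opposite directions at promoters.

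The list members furthest from 0 were few. In the young MUL list, Arhgap30 stood at 0.53 and Rgs1, a regulator of G-protein signaling, at 0.25 (-0.02 to 0.52), whereas Myb, a transcription factor of progenitors, stood at -0.16 (-0.30 to -0.03). Kit, the stem cell factor receptor and also a member, had 1447 and 1496 fragments, 135 and 119 FPM, at 0.18 (0.08 to 0.29). In the young PLT list, the ends were Serpina3g at 0.31 and B930018H19Rik at -0.36. Next to them, Shisa9 stood at 0.24 (0.08 to 0.39) and Ldb2, a cofactor of LIM-domain proteins, at -0.34 (-0.53 to -0.14). Il18r1, a chain of the interleukin-18 receptor, led the clone MUL list at 0.37 (0.05 to 0.69), whose lowest member was Cyp2r1 at -0.34. In the clone PLT list, Nsg1 was lowest at -0.28 (-0.67 to 0.11) and Cdc42ep5 highest at 0.19.

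The lists were also counted in the cells outside the gates. Between 4 and 2 CD357 tags, 36 of 57 young MUL genes lay above 0 and their sum moved by 0.024 (0.004 to 0.045), and 33 of 56 clone MUL genes did, with 0.026 (-0.007 to 0.059). For the young PLT list, 78 of 170 lay above 0 with -0.001 (-0.015 to 0.014), and for the clone PLT list 31 of 61 with 0.012 (-0.016 to 0.039), beside 49.9% of all tested genes. Without the cells of excess overlaps, 41 of 57 young MUL and 67 of 170 young PLT genes lay above 0. By CD357 count the MUL lists had no steady order. The young MUL list stood at 7369 and 7429 FPM at 0 and 1 tags, 7605 at 4 and 7449 (7339 to 7562) at 9 or more. The clone MUL list stood at 2783 and 2813, then 2930 at 4 and 2856 at 9 or more.

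The study's short panels differed little. In the PLT panel, Vwf, the gene of a platelet adhesion protein, had 2186 and 2786 fragments, or 205, 220 and 222 FPM in high, intermediate and low cells, at -0.12 (-0.20 to -0.04). Neo1, a netrin receptor, stood at -0.15 (-0.29 to -0.01), Plek2 at -0.04, Gpr4 at 0.04, Inhba at 0.04 and Pdgfc at 0.11. In the MUL panel, Sox4 stood at 0.11, Crip2 at 0.08, Ctla2a at 0.07, Sec16b at 0.00, Flt3 at -0.01 (-0.16 to 0.13), Cd27 at -0.09 and Clec4d at -0.09. The panel medians were -0.002 and 0.000, whereas the summed log2 ratios were -0.065 (-0.122 to -0.008) for PLT, where Vwf and Neo1 had intervals below 0, and 0.020 (-0.057 to 0.096) for MUL. Without the cells of excess overlaps, Vwf stood at -0.13 (-0.22 to -0.04) and Neo1 at -0.11 (-0.26 to 0.03), an interval that held 0.

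Genes known to rise in old stem cells mostly lay below 0. Of 20 such genes 3 (15.0%) lay above 0 against 49.5% of all tested genes, the median was -0.082, and their sum moved by -0.094 (-0.127 to -0.061). Sbspon had 161 and 261 fragments at -0.47 (-0.76 to -0.18), Tm4sf1 185 and 279 at -0.36 (-0.64 to -0.09), Osmr, the oncostatin M receptor, 212 and 310 at -0.32 (-0.58 to -0.06), and Clu (clusterin) 453 and 633 at -0.25 (-0.43 to -0.08). Selp, the gene of P-selectin, stood at -0.17 (-0.32 to -0.02), and Cd38 (0.12), Plscr2 (0.03) and Jun (0.01) were the ones above 0. Between 7 or more tags and 0, 6 of 18 (33.3%) lay above 0 with a median of -0.077. Between 4 and 2 tags 8 of the 20 lay above 0, and the sum moved by -0.039 (-0.090 to 0.012). Slamf1, Vwf and Itgb3 are members that other lists or the antibody panel also hold.

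**Figure D5:**
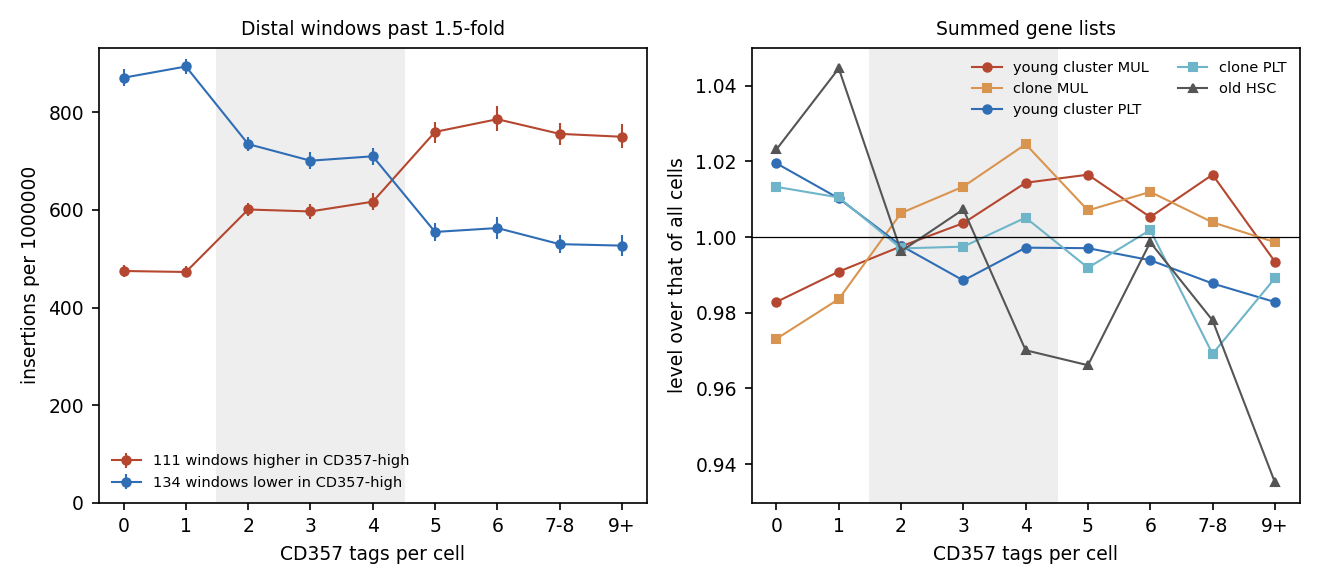
Left, insertions per 1000000 (y axis) in the 111 higher and 134 lower windows by CD357 count (x axis) with 95% counting intervals. These intervals take insertions as independent and are too narrow. The largest steps lie at the gates that chose the windows, with smaller ones from 2 to 4 tags (shaded, cells outside both gates). Right, summed fragments of 5 gene lists relative to their level over all cells (y axis, not starting at 0). The MUL lists are lowest at 0 tags but do not rise steadily, and at 9 or more tags lie below their level at 4. The PLT and old HSC lists are lower above 4 tags than at 0 and 1.

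The genes of the CD357 pathway lay close to 0. Of 22 receptors and ligands of the TNF families 18 held at least 200 fragments, 10 (55.6%) lay above 0 against 49.5% of all tested genes, the median was 0.031 and none was past 1.5-fold, where 0.0955% of all genes were. The ligand of CD357, Tnfsf18, held 41 and 37 fragments. Tnfsf4, which encodes the ligand of OX40, stood at -0.26 (-0.50 to -0.04), Tnfsf9, the ligand of 4-1BB, at -0.25 (-0.59 to 0.08), and Tnfrsf13c, the BAFF receptor, at 0.30 (-0.07 to 0.67). Of 22 adaptors and factors from TRAFs to NF-kB, 15 (68.2%) lay above 0 with a median of 0.029 and a sum that moved by 0.016 (-0.015 to 0.046). The adaptors Traf2 and Traf5 stood at 0.01 and -0.06, the kinase genes Chuk and Ikbkb at 0.17 and -0.16, and Birc3 at 0.14, each with an interval that held 0.

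Genes of regulatory T cells, the cells for which CD357 is best known, lay close to 0. Of 12 genes 7 held at least 200 fragments, and 6 of these lay above 0 with a median of 0.029. Foxp3, the factor that defines regulatory T cells, had 415 and 420 fragments at 0.21 (0.01 to 0.41), Lrrc32 stood at 0.13 and Il2ra at 0.09, and Ctla4 at 0.01. The defining T cell gene Cd3e held 30 and 36 fragments. Of 9 T cell genes with at least 200 fragments 6 lay above 0, with a median of 0.022, and all 14 matched genes of the T cell list summed to 542 and 540 FPM.

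Other cell types and the cell cycle gave no list past the fold. The stem cell list had 6 of 19 genes above 0 and a median of -0.055, with Kit highest and Fgd5 lowest at -0.23 (-0.38 to -0.08), and a summed level of 2821 and 2850 FPM over all 20 matched genes, so the genes of the labelled cell type were open in both groups. Megakaryocyte genes had 6 of 16 above 0 (median -0.035), erythroid genes 5 of 9 (0.008), myeloid genes 6 of 10 (0.021), macrophage genes 4 of 7 (0.038, with 267 and 260 FPM over all 14 matched genes, but 0 of 7 above 0 and a sum that moved by -0.147 (-0.268 to -0.028) between 4 and 2 tags), lymphoid priming genes 7 of 16 (-0.018) and B cell genes 2 of 6 (-0.058). DNA replication genes had 16 of 23 above 0 (median 0.024), led by Cdc6, a replication licensing factor, with 719 and 695 fragments at 0.28 (0.13 to 0.43), and mitosis genes had 9 of 18 (0.016). Quiescence genes had 8 of 16 above 0 (0.002), early response genes 9 of 20 (-0.005) and interferon response genes 6 of 15 (-0.032), among which the promoter of Isg15, an interferon-induced ubiquitin-like modifier, held 86 and 155 fragments at -0.62. Of all tested genes 49.5% lay above 0. Between 4 and 2 tags, 12 of 19 stem cell genes (median 0.021) and 5 of 6 B cell genes (0.095) lay above 0, the opposite side. Megakaryocyte genes (7 of 16, -0.038) and DNA replication genes (15 of 23, 0.029) kept their side there, beside 49.9% of all tested genes above 0. Without the cells of excess overlaps, 13 of 23 DNA replication genes (median 0.018) and 6 of 19 stem cell genes (-0.049) lay above 0, beside 49.9% of all tested genes. Lymphoid priming (9 of 16, 0.003), erythroid (4 of 9, -0.048) and myeloid genes (5 of 10, -0.001) changed the side of their median there. The part of the larger share of cells with excess overlaps in these small shifts was not tested beyond the values without those cells.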

How the data were processed

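LT-HSCs of 1 pool were measured in 3 libraries. ATAC and RNA reads were processed by the authors, per the file headers, with Cell Ranger ARC 2.0.2 on mm10, which collapsed duplicate read pairs, shifted fragment ends for the transposase and called cells. The deposited values were raw counts: fragments with their read pairs, reads and UMIs per barcode, and antibody tags per cell, which the authors made with CITE-seq-Count (version not given in the sources used here). Antibodies were named by identifier, since CD106 is listed under the description of a different one.

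Cells with at least 10 tags over 12 antibodies were kept, leaving out tags that matched no antibody. Fragments were summed over each group, counted over genes of GENCODE M21 (with 2 kb upstream) and over 1 kb on each side of a gene start, and as insertions in 500 bp windows over 2 kb from any gene start. Ratios were scaled by nuclear fragments and taken to log2 after adding 0.5 to counts. Features with at least 200 counts in both groups together were compared, and 1.5-fold counted as a difference. Intervals were exact 95% Poisson, Clopper-Pearson or conditional binomial intervals. Each group was 1 sample, so no test across genes was run and the spread between animals is unknown. The calculation was tested on simulated data.

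Genes named were the 12 with the interval furthest from 0 in each direction, 5 promoters and 8 windows by the same rule, all antigen genes and both panels, and some that met the rule are not reported here. Since fewer than 12 genes passed 1.5-fold, the rest were filled by the same bound after their values were seen. Members and lists were chosen with earlier results of these data known. The clone and young cluster lists were the study's, from other libraries, and 6 of 611 distinct listed genes were not matched. Other lists were of general knowledge. Windows in fragments were added after the data were seen. Sequences came from GRCm38.p6. Doublets were not removed, but cells with excess overlaps (3 or more fragments of up to 900 bp over a site, adjusted value below 0.01) were left out in an alternative. Other alternatives changed the gate, tag minimum, antibody scale, depth (cells thinned to 5000 fragments), count minimum, fold and feature size. The code used numpy 2.4.6, pyarrow 21.0.0, pandas 2.3.3, matplotlib 3.10.9 and scipy 1.17.1 under Python 3.11.15.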

Additional observations from a re-analysis of the deposited data

Results flagged for a closer look

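Tags that matched no antibody, which no comparison used, averaged 4.97 in CD357-high and 3.92 in CD357-low cells. They are given as a signal outside the main measurement. Their ratio was 1.27 (1.22 to 1.32) in tags per cell and 1.04 (0.996 to 1.08) against the sum of the other 11 antibodies. That sum leaves out the CD357 tags, which the gate made higher in CD357-high cells. In cells with the fewest, intermediate and most other tags the ratio was 1.23, 1.11 and 1.24, where the other 11 antibodies together stood at 0.994, 1.02 and 1.12.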

How the results depend on the processing

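No paired analysis was possible because each group was 1 sample of 1 pool with no replicate numbers. Of the single values, 497 were counted as unchanged, 61 as moved and 3 that were past 1.5-fold as reversed (E230025N22Rik to -0.08 and Tmem9b to 0.16 in cells with 22 to 31 other tags, and P2X7R to -0.00177 as a difference of centred log ratios, whose mean includes the gated CD357). Unchanged meant inside the main interval for genes and antibody ratios. List medians have no interval, and for them it meant a small shift. Centred log ratios were all counted as moved or reversed. P2X7R was above 1 in 9 of 9 alternatives on its ratio (1.45 to 2.30), CD61 in 5 of 9 (0.892 to 1.16). Differences under 1.5-fold also changed direction, among them Sgcz to -0.02 at 7 or more tags against 0, Tnfrsf18 to 0.05 at 4 or more against 2 or less, CD27 in 1 of 9 (0.975), CD106 and CD163 in 2 of 9 and CD206 in 1 of 9, and the genes Vcam1, Procr, Cd274, Cd163 and Mertk in at least 1 alternative each. Antibodies above 1 numbered 7, but 9 at 7 or more tags against 0, 3 by share and 1 by centred log ratio. Genes past 1.5-fold numbered 18, but 30 at 7 or more tags against 0 and 11 at 4 or more against 2 or less, sharing 1 and 2 genes with the 18. At the stricter gate 13 of the 18 had a fold past 1.5, 12 of them with fewer than 200 fragments, and at the looser gate 2 had. In cells with 22 to 31 other tags 12 of the 18 had, all 12 with fewer than 200 fragments. The cells of the stricter gate and of this stratum had taken part in choosing the 18, so these counts are no separate check. Genes past the fold numbered 1 and 330 at count minima of 500 and 50, 484 and 0 at folds 25% above equal and of 2, 98 in insertions and 11 among protein-coding genes. Promoters past it numbered 18, but 11 at the looser gate, 9 thinned, 0 and 303 at minima of 500 and 50, 409 and 0 at these folds, and 11 at 500 bp on each side. Windows numbered 245 (1.75% of those tested), but 67 (1.85% of 3622) at the stricter gate, 35 (2.09% of 1671) in the cells of intermediate antibody depth, 53 (1.51% of 3504) thinned, 1 and 11415 at minima of 500 and 50, 2324 and 7 at these folds, 398 at 1 kb, 155 over 10 kb from a start, and 29 in fragments. With CD357 taken as a residual on the other antibodies, 17 genes (8 shared) and 244 windows (154 shared) were past it. After thinning, 19 genes were past it, of which 1 was shared, while 14 of the 18 had a fold past 1.5. The thinned fragments were drawn from those that chose the 18. The clone MUL median turned to -0.012 when thinned, and the medians of the clone PLT, young cluster and old HSC lists kept their sign in 11 of 11 alternatives. Fewer than 200 fragments at Tnfrsf18 limit what its ratio can show.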

Other observations

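Fragments over the ribosomal RNA copy on chromosome 17 were chosen for this paragraph after their values were seen, since the genes there stood apart from others of similar count. The overlapping or adjacent Gm26917, Gm42418 and AY036118 span chr17:39843013-39848788. Ribosomal RNA genes are near-identical repeats, so which copy a fragment came from is uncertain. The region held 30463 fragments of CD357-high and 39828 of CD357-low cells, or 2851 and 3181 per 1000000 nuclear fragments (FPM), a log2 ratio of -0.158 (-0.179 to -0.136). By CD357 count the level was 3146 and 3208 at 0 and 1 tags, between 2824 and 2892 at 2 to 4, 3054 at 5, 3129 at 6, 2767 at 7 to 8 and 2406 at 9 or more, with no steady order. The level varied widely between cells, with an SD of 2595 and 2914 FPM and medians of 2208 and 2406 in the groups, so the interval is narrower than the spread of cells would give. In cells with 4 to 21 other antibody tags the log2 ratio was -0.028 (-0.064 to 0.009), with 22 to 31 tags -0.156, and with 32 to 157 tags -0.134. The medians per cell in these strata were 2621 and 2601, 2383 and 2278, and 1885 and 2293 FPM in CD357-high and CD357-low cells, so that in the first 2 strata the median was the higher in CD357-high cells. Without the cells of excess overlaps it was -0.141.

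Over the 14008 distal windows, windows that held the letters of known motifs differed by small amounts. All windows summed to a log2 ratio of 0.003 (0.000 to 0.006). Those with a HOXA9-MEIS string (TGATTTAT) summed to 0.034 (0.012 to 0.056), PU.1 (AGAGGAAGT) to 0.028 (0.010 to 0.045) and RUNX (TGTGGTTT) to 0.022 (0.011 to 0.034), each interval above that of all windows. Those with CRE (TGACGTCA) summed to -0.016 (-0.038 to 0.005), the ends of the range over 28 strings being HOXA9-MEIS and CRE. Of the 111 higher, 134 lower and all tested windows, 8.11%, 15.7% and 15.9% held CTCF (AGGGGGC), 20.7%, 11.2% and 16.1% IRF (GAAANNGAA), and 9.91%, 5.22% and 6.52% RUNX. For PU.1 these shares were 0.901%, 2.99% and 3.10%, and for HOXA9-MEIS 1.80%, 1.49% and 1.98%. Neither of these 2 strings was more frequent in the higher windows than in all tested. The median GC content was 49.2%, 49.0% and 51.4%.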
